A study of Mus musculus with 16 samples.

Results

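Liver mRNA of 9 amino acid transporters was measured in obese mice given a glucagon receptor agonist or vehicle on diets with standard or high protein. The 9 genes (Slc7a2, Slc38a2, Slc38a3, Slc38a4, Slc3a1, Slc3a2, Slc43a1, Slc16a10 and Slc1a4) were taken by name as plasma membrane transporters of neutral, cationic and aromatic amino acids, by a rule that uses no measured value but was drawn up with earlier results of these data known, and each matched 1 of the 55487 Ensembl gene identifiers in the deposited table. Each of the 16 male C57BL6/J mice gave 1 library. The groups, of 4 mice each, were named by treatment and diet: vehicle SP, vehicle HP, then G108 SP and lastly G108 HP. All of the mice were unmodified, individually housed and made obese before treatment on a diet with 60 kcal% fat, for 8 weeks from an age of 10 weeks according to the sample records. G108, a long-acting glucagon analogue, was injected under the skin daily for 22 days at 2.5 nmol/kg, and vehicle was given in the same way. SP stands for a high-fat diet with standard protein and HP for a high-fat diet with high protein. By the paper's methods the mice were moved to these diets before G108 or vehicle was first given. Livers were taken after a 4 h fast, on day 25 by the sample records, while the paper's methods give an earlier day, younger mice and a shorter period on the first diet.

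The liver takes up amino acids from blood for gluconeogenesis, urea synthesis and protein synthesis, and glucagon is a long-known stimulus of this uptake in hepatocytes. Transport across the plasma membrane is shared between carriers with different substrates: cationic amino acids enter by carriers of the Slc7 family, small neutral amino acids by sodium-coupled system A carriers of the Slc38 family, and glutamine, histidine and asparagine by system N carriers of that family. Slc3a1 and Slc3a2 encode heavy chains that do not carry substrate themselves but bring a light chain of the Slc7 family to the membrane.

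The deposited values are TPM, a length-adjusted transcript level in which reads per gene are divided by exon length and every library is scaled to the same total of 1000000. Each library was here further divided by a median-of-ratios size factor, which sets the typical gene to the same level in every library, and these values are called scaled TPM below. Groups were compared on log2(scaled TPM + 1) with the moderated test of limma in 1 model of all 16 libraries. Tested were 11839 genes whose mean TPM was 1 or more, all 9 transporters among them, and a gene was called at a Benjamini-Hochberg adjusted p under 0.05. A log2 fold change on this scale understates the change of genes near 1 TPM. Standard errors (SE) and 95% intervals are of log2 fold changes, and ± gives the SD of 4 mice.

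The libraries held from 27.8 to 45.0 M reads assigned to genes (M, 1000000), as recovered from the steps of low TPM values, and vehicle libraries were the deeper ones (33.4 to 45.0 M on SP and 34.5 to 44.1 M on HP, against 27.8 to 35.9 M and 30.5 to 36.5 M with G108). Transcripts of 49 Mup genes, abundant secreted liver proteins, took 42.6% to 49.7% of TPM in vehicle SP, 35.7% to 44.9% in vehicle HP, 18.3% to 23.0% in G108 SP and 18.2% to 29.6% in G108 HP. Size factors ranged from 0.683 to 1.54, and with G108 on SP the median gene differed from vehicle by a log2 of 0.60 in TPM as deposited and -0.01 in scaled TPM. All 8 hepatocyte markers (Alb, Apoa1, Ttr, Serpina1a, Hnf4a, Cps1, Cyp2e1 and Tat) were present, and the 4 kidney tubule, 4 skeletal muscle, 4 adipocyte and 5 exocrine pancreas markers each had a mean below 0.1 scaled TPM. Haemoglobin genes and Alas2, the 5 blood cell markers, summed to 840 to 3084 scaled TPM in vehicle SP, 994 to 1302 in vehicle HP, 654 to 916 in G108 SP and 983 to 2380 in G108 HP. Markers of Kupffer cells, bile duct cells, stellate cells, endothelial cells and lymphocytes were also listed. Only 1 of 5 bile duct cell and 2 of 6 stellate cell markers were abundant enough to be tested. For Kupffer cells it was 5 of 6, and for endothelial and blood cells all 5. No lymphocyte, kidney tubule, skeletal muscle, adipocyte or exocrine pancreas marker was tested, so none of these could be called. Of the markers tested, 1 hepatocyte marker was called with G108 on each diet, and no marker of another list was. Whether the shares of Mup or mitochondrial-genome transcripts or the blood markers had a part in the differences below was not tested. The only check was a scaling without mitochondrial-genome and Mup genes, given with the results. In whole liver, fewer cells of a type and less RNA per cell cannot be told apart.

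Glucagon acts through cAMP, and amino acid shortage through a response element bound by ATF4, so promoters of the transporters were searched for the letters of these elements. RefSeq windows on GRCm38.p6, from 250 bases before to 50 after a transcription start, were given for 7 of the 9 genes, with 9 windows in all because Slc38a4 had 3. Slc7a2 and Slc38a3 had no window. The full cAMP response element TGACGTCA stood in none of the 9 windows and in 1.79% of 32851 windows of all genes, on either strand. Its short form TGACG, which the full element contains, stood in 3 of the 9 windows and in 20.8% of all windows. The ATF4 core TGATGNAA stood in 1 of the 9 windows and in 3.97% of all. The matches, which lie in 3 genes, are shown to give their letters and place, with up to 25 bases on each side, on the strand of the gene and with the matching bases in capitals. The shares are per window, and Slc38a4 with its 3 windows had more chances of a match.
Slc1a4, short cAMP element at -134 to -130, chr11:20332818-20332872, minus strand: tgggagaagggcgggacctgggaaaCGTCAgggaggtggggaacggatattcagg
Slc38a2, short cAMP element at -27 to -23, chr15:96699729-96699780, minus strand: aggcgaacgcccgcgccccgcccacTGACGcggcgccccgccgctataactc
Slc38a4, short cAMP element at -110 to -106 of an internal start, chr15:97031294-97031348, minus strand: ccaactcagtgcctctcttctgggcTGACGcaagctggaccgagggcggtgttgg
Slc1a4, ATF4 core at -4 to 4, chr11:20332710-20332742, minus strand: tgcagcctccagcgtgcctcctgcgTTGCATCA
In Slc1a4 the short element lies before the start and the ATF4 core across it, the element of Slc38a2 lies just before its start, and that of Slc38a4 lies before a start within the gene. A match of letters is no evidence of binding, and it was not tested here.

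The transporters differed widely in level. Slc38a3 was the most abundant with a mean of 332 scaled TPM over 16 mice, followed by Slc38a4 with 190 and Slc7a2 with 71.6. Slc3a1, Slc38a2 and Slc16a10 followed with means of up to 15.3 scaled TPM, and Slc3a2 with 7.28. Slc43a1 and Slc1a4 were at the lower end with 1.35 and 1.03, yet each was counted in every library, with 109 to 335 and 46 to 236 reads. Slc38a3 alone made up 51.4% of the summed level of the 9 transporters. That sum was 521 ± 113 scaled TPM in vehicle SP, 590 ± 22.1 in vehicle HP, 749 ± 21.3 in G108 SP and 723 ± 59.0 in G108 HP. Without Slc38a3 it was 217 ± 54.3, 283 ± 10.9, 391 ± 32.4 and 364 ± 46.3 in the same order, so the vehicle SP mice had both the lowest mean and the widest spread.

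**Figure D1:**
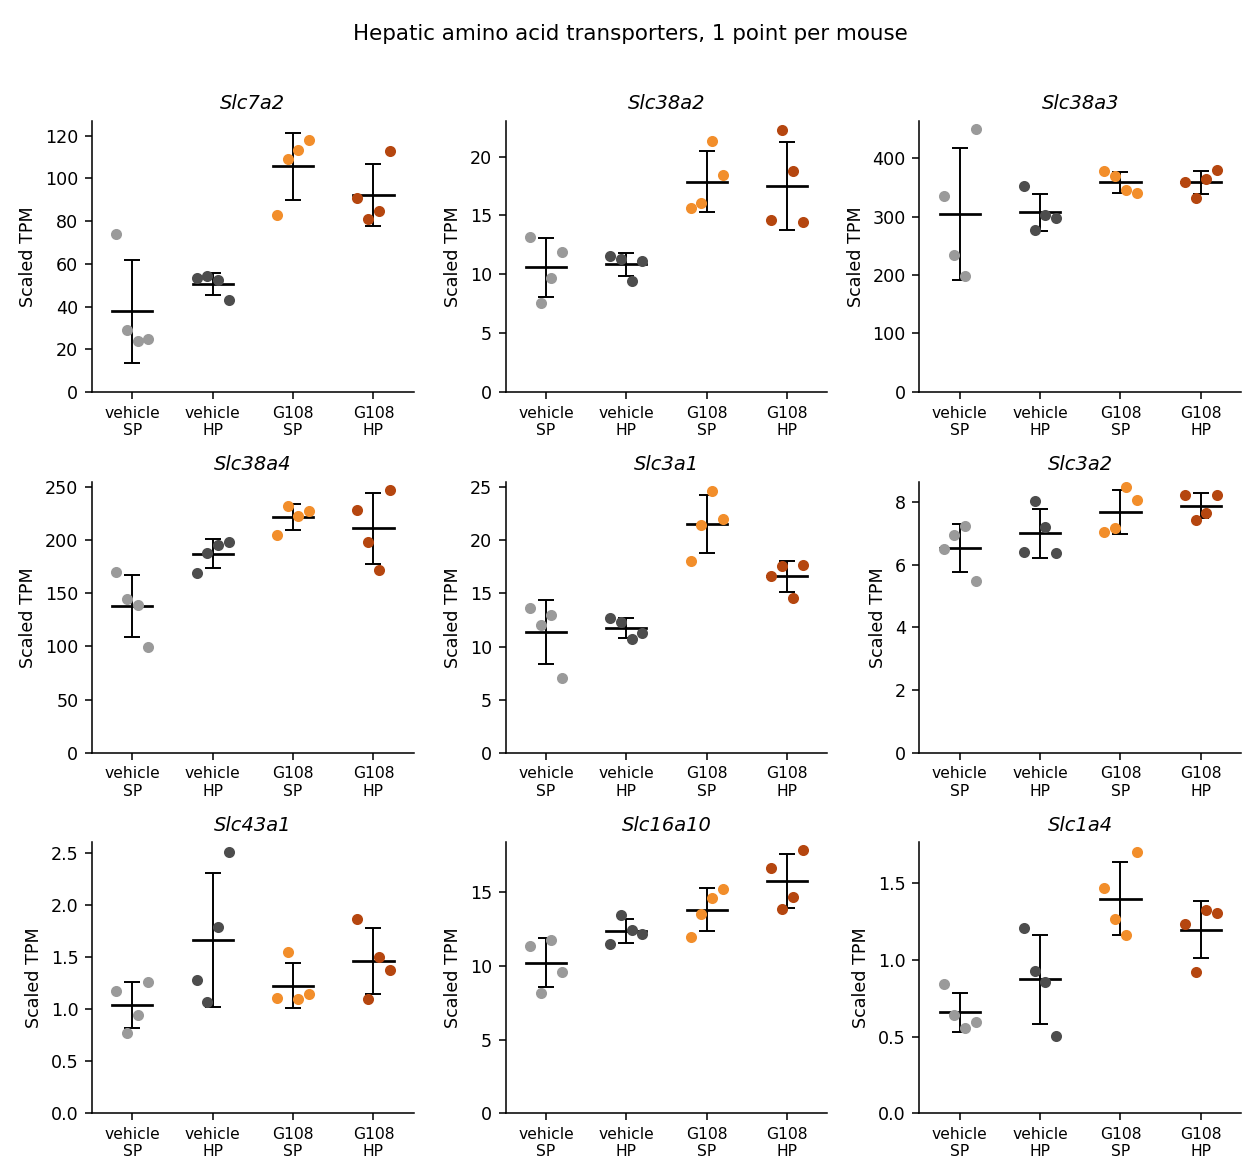
Level of each transporter in scaled TPM (y axis, from 0) in the 4 groups (x axis), with 1 point per mouse, a horizontal line at the mean and bars of 1 SD (n = 4). Slc7a2, Slc38a2, Slc38a4, Slc3a1, Slc16a10 and Slc1a4 are higher in every G108 SP mouse than in any vehicle SP mouse, and Slc38a3, Slc3a2 and Slc43a1 overlap.

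The first comparison asked how G108 altered transporter mRNA on the standard protein diet. The cationic carrier Slc7a2, the system A carriers Slc38a2 and Slc38a4, the heavy chain Slc3a1 and the small neutral carrier Slc1a4 rose with G108 on SP, by 1.60- to 2.79-fold in mean scaled TPM. These were 5 of the 9 transporters, where 1.33% of all genes tested were called higher. No transporter was called lower. Slc1a4 counts among the 5 but passed the filter on low values only through the G108 mice. Without that filter 3 of the 9 were called, Slc7a2, Slc38a4 and Slc3a1. Calls over all genes, in either direction, were then 233 in place of 322. At an unadjusted p under 0.05 there were 7 of 9 higher, against 9.01% of genes. Groups did not overlap for 6 of 9, against 4.52% of genes. The median log2 fold change of the 9 was 0.53, beside -0.01 for all genes tested. This median is the value of Slc1a4 itself, which is also among the 7 and the 6 just given. These figures therefore include a gene that passed the filter through the G108 mice.

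The 5 calls depended on the estimate of spread, and those of Slc38a2, Slc38a4 and Slc1a4 also on single mice, while Slc7a2 and Slc3a1 were called whichever library was left out. When only the 8 libraries on SP were fitted none of the 9 was called, with adjusted p between 0.0610 and 0.120 for these 5 in limma, and leaving out 1 library gave between 2 and 6 calls, with 3 without vehicle SP mouse 2, vehicle SP mouse 3, G108 SP mouse 2 or G108 SP mouse 3 and 2 without G108 SP mouse 4.

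Slc7a2 (chr8:40862396-40922308, plus strand, GRCm38) encodes a carrier of arginine, lysine and ornithine, and its level changed most. The vehicle SP mice 1 to 4 had 73.7, 29.0, 24.0 and 24.6 scaled TPM, and the G108 SP mice 82.6, 109, 113 and 118. Every G108 mouse was above every vehicle mouse, although vehicle SP mouse 1 came close to the lowest G108 mouse. Means were 37.8 ± 24.0 and 106 ± 15.7, a 2.79-fold difference with a log2 fold change of 1.61 (SE 0.27, 95% interval 1.03 to 2.19, limma adjusted p = 0.00496). Without vehicle SP mouse 1 the log2 fold change was 1.98. Over the 16 fits that left out 1 library the log2 fold change ran from 1.45 to 1.98. A long non-coding RNA on the opposite strand, Gm26584, shares 635 exon bases (6.95%) with Slc7a2, and counting by strand was not stated.

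The system A carriers Slc38a2 (chr15:96687392-96699730, minus strand) and Slc38a4 (chr15:96994820-97055956, minus strand) transport alanine and other small neutral amino acids together with sodium. They lie near each other on chromosome 15. Slc38a2 stood at 13.2, 7.58, 9.65 and 11.9 scaled TPM in vehicle SP and at 15.7, 16.1, 21.3 and 18.5 in G108 SP. The groups did not overlap, and the mean rose 1.69-fold (log2 fold change 0.72, SE 0.17, limma adjusted p = 0.0296). Slc38a4 was over 10 times as abundant in these mice, with 170, 144, 139 and 99.8 scaled TPM in vehicle SP and 205, 232, 223 and 228 in G108 SP. Again every G108 mouse was above every vehicle mouse, and the mean rose 1.60-fold (log2 fold change 0.70, SE 0.15, limma adjusted p = 0.0203). Slc38a2 was called in 11 and Slc38a4 in 13 of the 16 fits that left out 1 library.

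Slc38a3 (chr9:107650634-107669530, minus strand), the system N carrier of glutamine, histidine and asparagine, was not called. It stood at 335, 234, 198 and 450 scaled TPM in vehicle SP and at 378, 370, 346 and 340 in G108 SP. The G108 values fell within the range of the vehicle values, which spread more than 2-fold. The log2 fold change was 0.31 (95% interval -0.10 to 0.72, limma adjusted p = 0.408), so the interval includes both no difference and a rise as large as that of Slc38a4.

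Of the heavy chains, Slc3a1 (chr17:85028376-85064236, plus strand) rose and Slc3a2 (chr19:8706882-8723369, minus strand) did not pass the test. Slc3a1, which pairs with light chains for cystine and cationic amino acids in kidney and gut, ranged from 6.99 in mouse 4 to 13.6 in mouse 1 of vehicle SP, in scaled TPM, and stood at 18.0, 21.5, 24.6 and 22.0 in G108 SP. No values overlapped, and the mean was 1.89-fold higher (log2 fold change 0.89, SE 0.16, limma adjusted p = 0.00700). Of its exon bases 601 (26.5%) are shared with Prepl, a gene on the opposite strand whose mRNA also rose, from 5.58 ± 0.224 to 8.26 ± 0.158 scaled TPM (log2 fold change 0.49, limma adjusted p = 0.00221), and reads of this stretch cannot be told apart without strand. Slc3a2, the partner of most light chains in other tissues, ranged from 5.47 to 7.24 scaled TPM in vehicle SP and from 7.03 to 8.50 in G108 SP (log2 fold change 0.21, SE 0.10, limma adjusted p = 0.277).

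The light chains that such heavy chains need were scarce in these livers. Of 9 light chain genes, Slc7a10 alone had a mean TPM of at least 1. Slc7a9 and Slc7a13, the light chains known to pair with Slc3a1, had 0 to 2 and 0 to 4 reads per library. Slc7a5, Slc7a7 and Slc7a8, partners of Slc3a2, had means of 0.638, 0.729 and 0.402 scaled TPM, and Slc7a6 of 0.0687. Slc7a10, a carrier of small neutral amino acids, stood at 1.16, 1.15, 1.17 and 2.20 in vehicle SP and at 0.630, 0.940, 1.01 and 0.833 in G108 SP. These groups did not overlap, with the G108 mice lower, and the difference was not called (log2 fold change -0.37, SE 0.13, limma adjusted p = 0.158).

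Slc1a4 (chr11:20302180-20332713, minus strand), a sodium-coupled exchanger of alanine, serine and cysteine, was the scarcest of the 9. It stood at 0.840, 0.638, 0.558 and 0.595 scaled TPM in vehicle SP and at 1.47, 1.26, 1.16 and 1.70 in G108 SP. The groups did not overlap, and the mean rose 2.13-fold (log2 fold change 0.53, SE 0.11, limma adjusted p = 0.0204). With a mean of 1.12 TPM it passed the filter on low values through the G108 mice, since the deposited vehicle means were 0.526 TPM on SP and 0.805 on HP, and without that filter its adjusted p in limma was 0.0555. On recovered reads, where no constant of 1 is added to the level, the log2 fold change was 1.09 (limma voom adjusted p = 0.0175).

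The aromatic and branched-chain carriers were not called. Slc16a10 (chr10:40033532-40142258, minus strand), a facilitated carrier of tryptophan, tyrosine and phenylalanine, stood at 11.4, 8.15, 11.7 and 9.60 scaled TPM in vehicle SP and at 11.9, 13.5, 14.6 and 15.2 in G108 SP. The groups just failed to overlap, and the difference missed the threshold (log2 fold change 0.41, SE 0.12, limma adjusted p = 0.0834). Slc43a1 (chr2:84838850-84863594, plus strand), a facilitated carrier of leucine and other large neutral amino acids, ranged from 0.771 to 1.26 in vehicle SP and from 1.09 to 1.55 in G108 SP. These ranges overlapped (log2 fold change 0.13, 95% interval -0.19 to 0.45, limma adjusted p = 0.649).

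**Figure D2:**
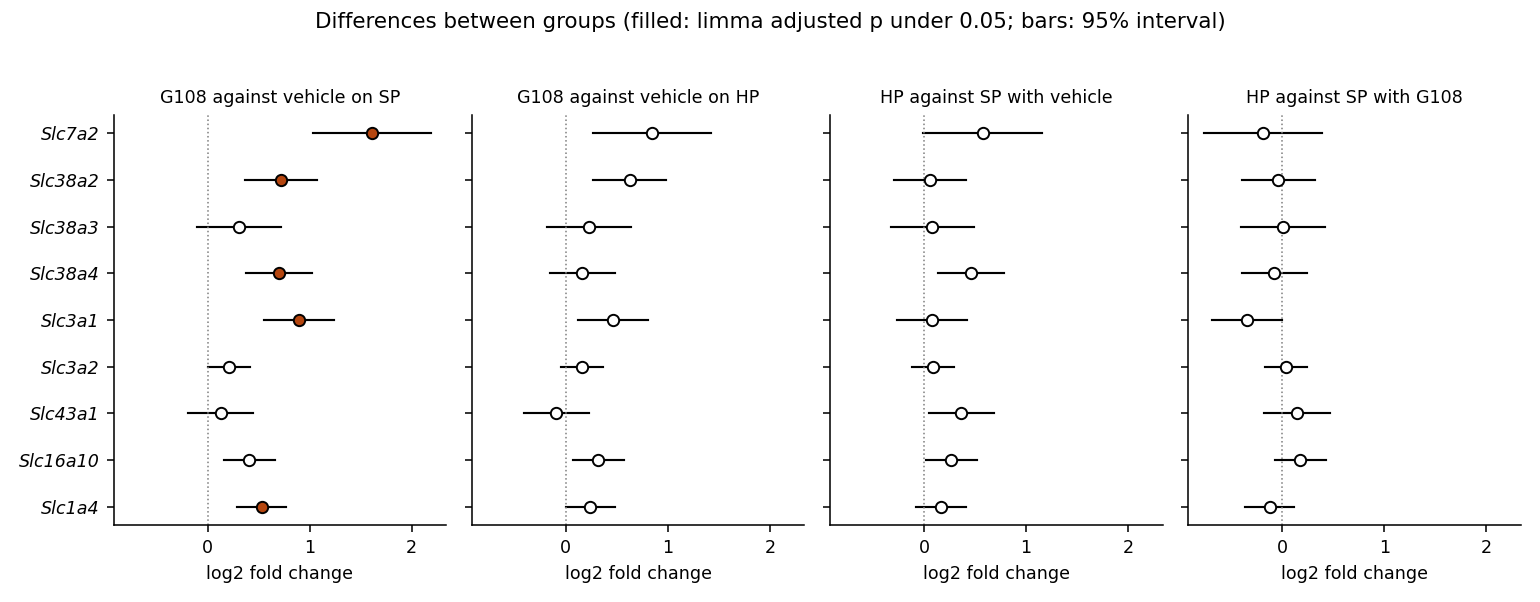
Log2 fold change on log2(scaled TPM + 1) (x axis) of the 9 transporters (y axis) in the 4 comparisons between groups, with 95% intervals as bars and filled points where the limma adjusted p was under 0.05. The 5 filled points are all in the comparison of G108 with vehicle on SP, led by Slc7a2 at 1.61.

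The second comparison asked the same of G108 on the high protein diet. None of the 9 transporters was called by limma, where 0.642% of all genes were called higher. At an unadjusted p under 0.05, 4 of the 9 were higher (Slc7a2, Slc38a2, Slc3a1 and Slc16a10), against 5.70% of genes. For these 4 every G108 HP mouse was above every vehicle HP mouse, and 4.20% of all genes had groups apart in that direction. The median log2 fold change of the 9 was 0.24, beside 0.00 for all genes tested. This median is again the value of Slc1a4, which passed the filter through the G108 mice.

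Slc7a2 stood at 53.3, 54.0, 52.3 and 43.0 scaled TPM in vehicle HP and at 90.5, 80.9, 84.5 and 113 in G108 HP. Means were 50.7 ± 5.17 and 92.2 ± 14.4, a 1.82-fold difference (log2 fold change 0.85, SE 0.27, 95% interval 0.26 to 1.43, limma adjusted p = 0.191). Fitted on the 8 HP libraries alone the adjusted p of Slc7a2 in limma was 0.0410, and without vehicle SP mouse 1 it was 0.0105, although that mouse is not part of this comparison and enters only the shared estimate of spread. Slc38a2 stood at 11.5, 11.3, 9.43 and 11.2 in vehicle HP and at 14.6, 22.3, 18.8 and 14.5 in G108 HP, 1.61-fold higher on average (log2 fold change 0.63, SE 0.17, limma adjusted p = 0.0971). Slc3a1 stood at 12.7, 12.3, 10.7 and 11.3 in vehicle HP and at 16.6, 17.6, 14.5 and 17.7 in G108 HP, 1.41-fold higher (log2 fold change 0.47, SE 0.16, limma adjusted p = 0.229), and its opposite-strand neighbour Prepl rose here too (log2 fold change 0.36, limma adjusted p = 0.0324). For Slc16a10 the values were 11.5, 13.4, 12.5 and 12.2 against 16.6, 13.8, 14.7 and 17.9 (log2 fold change 0.32, SE 0.12, limma adjusted p = 0.263).

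The other 5 transporters overlapped between vehicle HP and G108 HP. Slc38a4 stood at 169, 188, 195 and 199 scaled TPM in vehicle HP and at 228, 198, 172 and 248 in G108 HP (log2 fold change 0.16, 95% interval -0.16 to 0.48, limma adjusted p = 0.782). Slc38a3 ranged from 277 to 352 and from 332 to 379 (log2 fold change 0.23, limma adjusted p = 0.754). Slc1a4 stood at 1.20, 0.928, 0.854 and 0.502 against 1.23, 0.923, 1.33 and 1.31, where vehicle HP mice 1 and 2 reached the G108 range (log2 fold change 0.24, limma adjusted p = 0.452). Slc3a2 had a log2 fold change of 0.16 and Slc43a1 of -0.09, with limma adjusted p of 0.619 and 0.882.

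The effect of protein content was then compared within each treatment. With vehicle, no gene was called (0% of those tested), and 466 genes had an unadjusted p under 0.05. Of the transporters 3 were higher on HP at that level, Slc38a4, Slc43a1 and Slc16a10, against 1.85% of genes. Slc38a4 had the smallest p of these 3, with a mean of 188 ± 13.3 scaled TPM in vehicle HP and 138 ± 29.1 in vehicle SP and a single overlap, between 170 in vehicle SP mouse 1 and 169 in vehicle HP mouse 1 (log2 fold change 0.46, 95% interval 0.14 to 0.78, limma adjusted p = 0.832). Slc7a2 had the larger log2 fold change, 0.57 (95% interval -0.01 to 1.15, limma adjusted p = 0.832), with vehicle SP mouse 1 above and the other 3 vehicle SP mice below all vehicle HP mice.

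With G108, no gene was called between the diets (0% of those tested), and 639 genes had an unadjusted p under 0.05. Slc3a1 was the one transporter with groups apart, its 4 G108 HP mice (14.5 to 17.7 scaled TPM) all lying below the 4 G108 SP mice (18.0 to 24.6), where 2.12% of genes were apart in that direction. It was also the one transporter lower on HP at an unadjusted p under 0.05, against 2.42% of genes (log2 fold change -0.35, SE 0.16, limma adjusted p = 0.858). The other 8 overlapped, with log2 fold changes from -0.19 for Slc7a2 to 0.18 for Slc16a10.

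The difference between the effects of G108 on the diets was tested as the interaction of G108 and diet. No gene was called (0% of those tested), and 855 genes had an unadjusted p under 0.05. All 9 transporters had a point estimate below 0, from -0.77 for Slc7a2 to -0.05 for Slc3a2, and 8 of the 9 intervals included 0. Slc38a4 was the exception at an unadjusted level, which 3.46% of genes reached in this direction (log2 difference -0.54, 95% interval -0.99 to -0.09, limma adjusted p = 0.575). For Slc7a2 the interval ran from -1.59 to 0.06, so a difference on HP as large as on SP and one that was much smaller both lie within it. The calls on SP and their absence on HP are therefore not shown to differ between the diets.

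In each of the 5 genes called on SP, group means ran from G108 SP through G108 HP and vehicle HP to vehicle SP. These genes were called because G108 SP lay above vehicle SP, which favours those groups as the ends of the order, so the order is a description only. The neighbours G108 SP and G108 HP overlapped in 4 of these genes and not in Slc3a1. Vehicle HP and vehicle SP overlapped in all 5. G108 HP and vehicle HP, the middle pair, were apart for Slc7a2, Slc38a2 and Slc3a1.

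The size of every difference on SP depended on the scaling between libraries. In TPM as deposited, all 9 transporters were called higher with G108 on SP, but so were 77.0% of all genes tested. Slc7a2 then had means of 29.4 and 147 TPM, a 5.02-fold difference with a log2 fold change of 2.37, and Slc38a3 had means of 236 and 492 TPM with a log2 fold change of 1.08 (limma adjusted p = 4.85e-04). Beside the shift of 0.60 in the median of all genes, 8 transporters had a larger log2 fold change, and Slc43a1 had 0.56, with deposited means of 0.817 and 1.68 TPM at which the added constant of 1 lowers the log2 fold change. On HP, where the shift was 0.09, deposited TPM gave 1 call, Slc38a2 (log2 fold change 0.74, limma adjusted p = 0.0487), beside 0.819% of all genes called higher. Rescaling TPM over genes other than the mitochondrial-genome and Mup genes gave 5 transporter calls on SP and 0 on HP. Over all genes tested in that setting, 237 were called on SP and 106 on HP, in either direction.

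**Figure D3:**
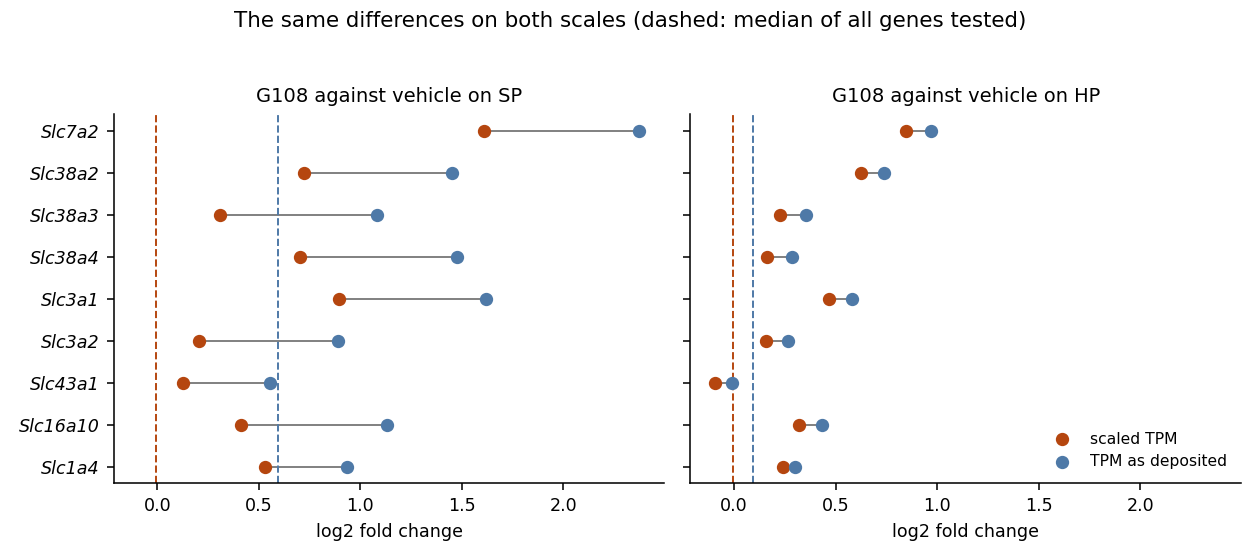
Log2 fold change with G108 (x axis) of each transporter (y axis) on SP and on HP, in scaled TPM and in TPM as deposited, with dashed lines at the median of all genes tested on each scale. On SP the deposited values lie further right, and so does their median line at 0.60, while on HP both scales lie close together.

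Other amino acid transporters of the plasma membrane were mostly not called. Of 25 listed, 7 had a mean TPM of at least 1, with 1 called higher on SP, 0 called lower, and 0 called on HP. The gene called was Slc1a2, a sodium-coupled glutamate carrier, which stood at 12.3, 9.59, 12.5 and 9.15 scaled TPM in vehicle SP and at 19.1, 16.1, 16.9 and 17.1 in G108 SP. The groups were well apart (limma adjusted p = 0.00522, log2 fold change 0.63, SE 0.11). With high protein it ranged from 13.1 to 15.4 with vehicle and from 17.3 to 21.2 with G108 (log2 fold change 0.38, limma adjusted p = 0.127). Slc6a13 and Slc6a12, carriers of taurine, betaine and GABA and the most abundant of the 7, had log2 fold changes on SP of -0.09 (95% interval -0.28 to 0.11) and -0.03 (-0.25 to 0.18). Slc7a1, the widely expressed cationic carrier of other tissues, had 3 to 28 reads per library, against 5404 to 37924 for Slc7a2.

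**Figure D4:**
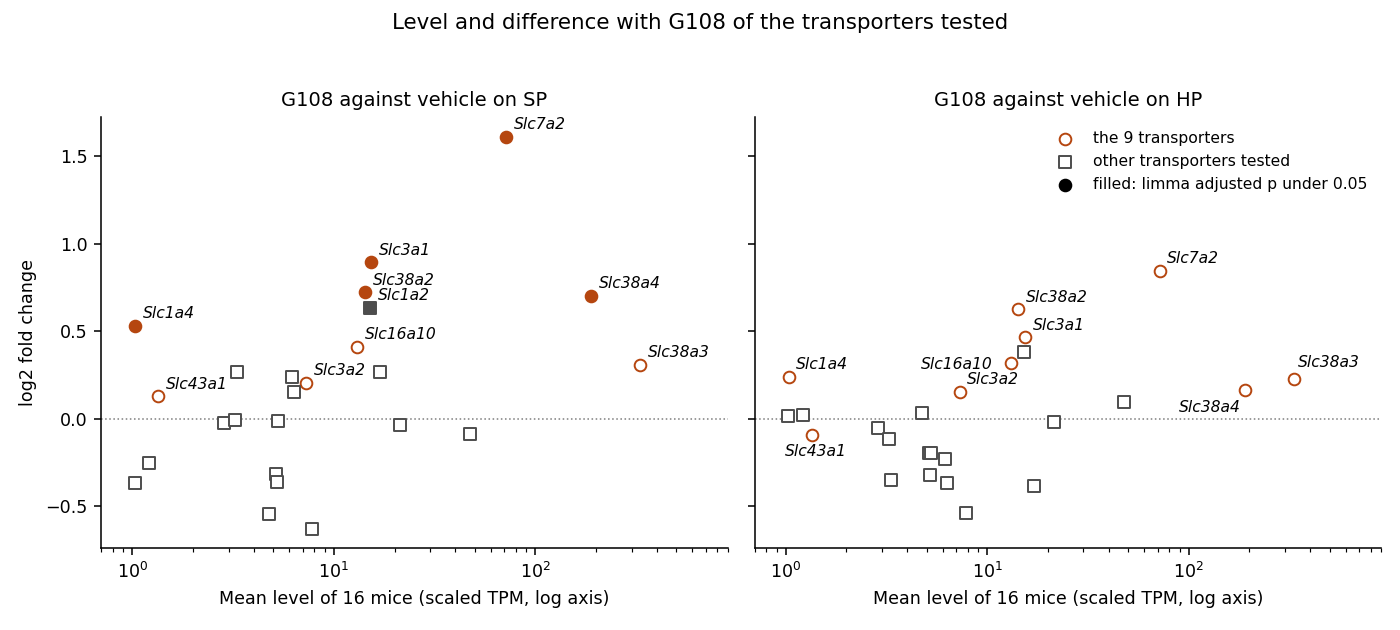
Log2 fold change with G108 (y axis) against the mean level over 16 mice in scaled TPM (x axis, log scale) for the 9 transporters (circles) and the other transporters tested (squares), on SP and on HP, filled where the limma adjusted p was under 0.05. Slc7a2 stands highest in both panels, and Slc1a2 is the one filled square.

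Genes with the most similar pattern were taken over all genes tested by the root mean square difference of centred log2 values across the 16 libraries, and they are a description without a test. For Slc7a2 the nearest were Fh1 (0.160), Ctcflos (0.219) and Gls2 (0.224), where the SD of Slc7a2 itself was 0.77. The nearest to Slc38a4 were Kynu (0.104), Gstm7 (0.120) and Lap3 (0.122), and to Slc1a4 they were Ggt6 (0.120), Crem (0.129) and Paqr3 (0.138). Slc38a2 was nearest to Tbc1d8, Irf2bp2 and Ptp4a1 (0.140 to 0.181), and Slc3a1 to As3mt, Itih2 and Uox (0.152 to 0.163). The genes nearest to Slc38a3 were Qtrt1, Gm26533 and Agxt2 (0.124 to 0.145), and those nearest to Slc16a10 were Atp2a2, Gm43055 and Pik3c2a (0.121 to 0.138). For Slc3a2 they were Mtrf1, Ubac2 and Maoa (0.0662 to 0.0702) and for Slc43a1 Zcchc2, F3 and Rbm47 (0.139 to 0.171). The SD of the transporter itself was 0.43 for Slc3a1, 0.41 for Slc38a2, 0.34 for Slc38a4 and 0.29 for Slc38a3. It was 0.26 for Slc16a10 and Slc1a4, 0.24 for Slc43a1 and 0.15 for Slc3a2. A small difference beside a small SD is no closer likeness, so these differences do not rank the transporters. No transporter of the 9 was among the 3 genes nearest to another.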

How the data were processed

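Total liver RNA was extracted with TRIzol, made into libraries and sequenced by a service provider. Per the sample records and the paper, the authors checked reads with FastQC 0.11.8, aligned them to GRCm38 with HISAT2 2.0.5, counted reads of each gene by featureCounts and turned the counts into TPM by exon length. The deposited values are these TPM, in 1 table of 16 columns, and were the only values used. Whether counting used strand was not given in the sources used here. The authors ran DESeq2 1.36.0 on read counts, which were not used here. All 16 columns were assigned by the sample titles.

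Size factors by the median of ratios came from 11591 genes above 0 in every library. The 11839 genes whose mean TPM reached 1 were tested on log2(scaled TPM + 1) with limma 3.58.1 in R 4.3.3, with an intensity trend, 1 mean per group and Benjamini-Hochberg adjustment over all genes tested. Reads were recovered from low values, of which 98.8% of 139184 lay within 0.02 of a whole read. They limit precision by counting error only. GENCODE annotation of GRCm38 gave the symbols, positions and exon lengths, and it named 55227 identifiers. No library was a copy of another, with at most 0.262% of values identical in any pair and r within groups from 0.925 to 0.990. The model was tested on simulated data with 200 genes changed in G108 SP. At a log2 change of 1, 36% of them were called and 2.70% of calls were wrong. At a log2 change of 2 these shares were 82.5% and 6.25%. Many genes changed by a log2 of 1 were thus missed, so a gene not called may still differ.

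The transporters, other lists and tests were chosen with earlier results of these data known. All 9 transporters are named, as are light chains with a mean TPM of at least 1, up to 4 genes called per other list and contrast, and the 3 genes of most similar pattern. Alternatives were TPM as deposited, TPM rescaled without mitochondrial-genome and Mup genes, a pseudocount of 0.1, no filter, a mean TPM of at least 5, the mouse number as a block, a fit of the compared groups alone, array quality weights, voom on recovered reads, and each library left out.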

Additional observations from a re-analysis of the deposited data

Results flagged for a closer look

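In each group of 4 mice the highest and lowest value of each transporter was set against the others, and a value was noted where its gap to the nearest mouse took a larger share of the range of the group than Dixon's 95% critical value for 4 samples. Of 36 gene and group pairs 3 were noted, and chance alone marks about 1 in 20. Slc7a2 in vehicle SP mouse 1 was high at 73.7 scaled TPM (0.900 of the range), beside 24.0 to 29.0 in the other 3 mice. Slc7a2 in vehicle HP mouse 4 was low at 43.0 scaled TPM (0.846 of the range), beside 52.3 to 54.0. Slc43a1 in G108 SP mouse 2 was high at 1.55 scaled TPM (0.886 of the range), beside 1.09 to 1.15. The causes were not tested.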

How the results depend on the processing

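Of the 9 transporters, 5 were called with G108 on SP. TPM as deposited gave 9, no filter 3, only the groups compared 0 and the mouse number as a replicate block 3, while the other alternatives gave 4 to 7 and leaving out 1 library 2 to 6. At a mean TPM of at least 5, Slc1a4 and Slc43a1 fell below the filter and could not be called. On HP, in place of 0 calls, TPM as deposited gave 1, only the groups compared 1 (Slc7a2), array quality weights 4 (Slc7a2, Slc38a2, Slc3a1 and Slc16a10), and leaving out 1 library 0 to 1, with 1 without vehicle SP mouse 1 (Slc7a2) and 1 without vehicle SP mouse 4 (Slc3a1). Between the diets with G108, array quality weights gave 1 (Slc3a1, adjusted p = 0.0218 in limma) in place of 0. Between the diets with vehicle and in the interaction, no alternative called a transporter. Mouse numbers did not pair the mice: 8 of 24 same-number pairs correlated above 0.1 (range -0.567 to 0.529), and 4 of 16 libraries were closest to their own number.

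Over all genes, 322 calls on SP became 9185 as deposited, 103 with only the groups compared, 213 with the block, 1821 with array quality weights and 158 to 471 with 1 library left out. The 145 calls on HP became 43 without a filter, 77 at a mean TPM of at least 5, 52 with only the groups compared, 35 with the block, 795 with array quality weights and 17 to 210 with 1 library left out. Array quality weights made 297 calls in place of 0 between the diets with G108.

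Signs turned for differences that were not called. For Slc43a1 with G108 on HP the log2 fold change was 0.0103 with array quality weights, and -0.204 to 0.0504 with 1 library left out. Between the diets with G108 it was -0.45 for Slc38a3, -0.37 for Slc3a2, -0.12 for Slc43a1 and -0.25 for Slc16a10 in TPM as deposited, and -0.15 for Slc38a3 and -0.10 for Slc3a2 in TPM rescaled without mitochondrial and Mup genes. In the same comparison, leaving out 1 library gave -0.156 to 0.0441 for Slc38a2, -0.0243 to 0.0387 for Slc38a3, -0.161 to 0.0147 for Slc38a4 and -0.0016 to 0.0791 for Slc3a2. Between the diets with vehicle, array quality weights gave -0.11 for Slc3a1, and leaving out 1 library gave -0.0787 to 0.164 for Slc38a2, -0.101 to 0.293 for Slc38a3 and -0.122 to 0.169 for Slc3a1. In the interaction, leaving out 1 library gave -0.213 to 0.0394 for Slc38a2, -0.291 to 0.103 for Slc38a3, -0.0966 to 0.0194 for Slc3a2 and -0.156 to 0.0034 for Slc16a10. The causes were not tested.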

Other observations

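Of 15 further genes of the same Slc families that act at other sites or on other substrates, 8 reached a mean TPM of 1 and 0 were called by limma in either direction with G108. At an unadjusted p under 0.05, 3 of the 8 were lower with G108 on SP and 2 on HP, beside 1031 and 662 of all 11839 genes tested. Slc16a12, known as a creatine carrier, had means of 9.85 scaled TPM in vehicle SP and 5.88 in G108 SP (log2 fold change -0.63, limma adjusted p = 0.0925) and of 9.32 and 6.20 on HP (log2 fold change -0.54, limma adjusted p = 0.227). Slc43a3, a nucleobase carrier of the family of Slc43a1, had means of 5.91 and 3.61 on SP (log2 fold change -0.54, limma adjusted p = 0.117), with the groups apart, and of 4.65 and 4.81 on HP (log2 fold change 0.03, limma adjusted p = 0.970). Slc38a7, a lysosomal carrier of glutamine and asparagine, had log2 fold changes of -0.36 on SP and -0.32 on HP (limma adjusted p = 0.179 and 0.342). The groups of Slc16a12 were apart on both diets and those of Slc38a7 on HP only. Those of Slc16a1 were also apart and lower on HP (log2 fold change -0.35, limma adjusted p = 0.601). In all, 2 of the 8 were apart and lower on SP and 3 on HP. The share of all genes apart in that direction is not given here. In TPM as deposited the log2 fold change on SP was 0.05 for Slc16a12, 0.10 for Slc43a3 and 0.29 for Slc38a7, where the median of all genes was 0.60.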
